A study of Homo sapiens with 26 samples.

Results

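The 44 genes described here make and assemble ribosomes. They were taken by symbol from the expression tables of LoVo cells, a human colorectal cancer line, which list 18165 genes (first table) and 17734 genes (second table). All 44 were found in each table, and all 44 passed the filter on low values (1 FPKM or more in 2 or more libraries). They fall into 5 role groups: 7 genes of RNA polymerase I transcription, 7 core proteins of small nucleolar ribonucleoproteins (snoRNPs), 11 genes of small subunit processing, 12 of large subunit assembly, and 7 nucleolar chaperones and regulators.

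Ribosome synthesis begins in the nucleolus, where RNA polymerase I transcribes a long precursor of the ribosomal RNAs. SnoRNPs modify that precursor, the processome of the small subunit and a set of large subunit factors cut and fold it, and ribosomal proteins are added on the way to the cytoplasm. The process takes much of the energy of a growing cell, follows growth signals that run through PI3K, mTOR and MYC, and is often raised in colorectal tumours. The libraries were made from poly(A) RNA, so they hold the messenger RNAs of the factors and give no reading of the ribosomal RNA itself.

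In the first table, LoVo lines with the PIK3CA mutation E545K or H1047R and the WT line were grown in conditioned medium collected from senescent cells, in 0.5 µM palbociclib, or in DMSO, with 2 libraries in each of these 9 groups. In the second table, E545K and H1047R cells were grown in 0.5 µM palbociclib with 4 µM erlotinib, or in 0.5 µM palbociclib alone, with 2 libraries in each of these 4 groups. PIK3CA encodes the catalytic subunit of a PI3K, palbociclib inhibits CDK4 and CDK6, and erlotinib inhibits the EGF receptor. The growth medium was DMEM with 10% serum throughout. The mutations were introduced with lentiviral vectors, and the palbociclib experiment used 1 clone of each mutant line; the clones behind the other libraries are not given in the sources used here. Palbociclib and DMSO lasted 72 hours in the first table and palbociclib with erlotinib 48 hours, while the hours in conditioned medium and the hours of the second table's palbociclib are not given, so the effect of those media and that of time in culture cannot be told apart. The labels also mention a control collected at 48 hours without naming its libraries. Nothing says that the 2 libraries of a group came from separate cultures, so the spread between them may be technical. The p-values use 1 spread per gene, estimated over all groups of a table and not from the groups compared alone. They therefore understate the spread of groups that vary more, such as H1047R in palbociclib in the first table.

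FPKM are fragments normalized to transcript length and library size, and the read depth behind them is unknown. FPKM sums per library ran from 441643 to 524290, and replicates correlated across genes at 0.9867 (H1047R in palbociclib, first table) to 0.9974 (WT in DMSO). The residual SD of the 44 genes was 0.206 (log2) in H1047R in palbociclib and 0.12 in H1047R in DMSO, while the remaining groups of that table had 0.0463 to 0.0784. Of 7 epithelial markers, 5 (EPCAM, CDH1, KRT8, KRT18, CDX2) exceeded 10 FPKM in every library, while KRT20 reached at most 1.2 FPKM and VIL1 at most 3.76 FPKM. Levels of these markers were not constant. Over the libraries of both tables, CDX2 ran from 18.71 to 89.65 FPKM, EPCAM from 182 to 417 FPKM and KRT8 from 3436 to 8612 FPKM. The summed epithelial markers were 6641 to 6940 FPKM in WT in DMSO, against 11855 to 15555 FPKM in H1047R in palbociclib (first table). Of 8 markers of other cell types, PTPRC, PECAM1, VWF and DCN stayed below 2 FPKM in every library, CD68 lay between 24.1 and 68.9 FPKM, COL1A1 reached 3.67 FPKM, COL3A1 reached 19.6 FPKM and CD3E is not listed. The 86 genes of cytosolic ribosomal proteins held 17.3% and 17.6% of the FPKM sum in E545K cells in conditioned medium, against 27.1% and 27.4% in WT cells in DMSO; FPKM is relative to such totals, and their part in the results below was not tested. In bulk cultures, more cells in a high-expressing state and more RNA per cell cannot be told apart.

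Within the first table, the genes were highest in conditioned medium in all 3 lines and lowest in WT cells in DMSO, by their median. The median FPKM of the 44 genes was 36.5 and 36.8 in the E545K libraries, 35.7 and 35.7 in the H1047R libraries and 37.3 and 34.8 in the WT libraries in conditioned medium. In palbociclib it was 34 and 33.6 in E545K, 32.3 and 31.4 in H1047R and 17.6 and 17.4 in WT. In DMSO it was 24.8 and 24.3 in E545K, 26.2 and 28.1 in H1047R and 16.6 and 17.1 in WT. The lines stood close together in conditioned medium, while WT stood apart from both mutants in palbociclib and in DMSO. WT in DMSO was the lowest group for 32 of 44 genes and WT in palbociclib for 7; E545K in conditioned medium was the highest for 25, WT in conditioned medium for 9 and H1047R in conditioned medium for 5. In the second table, normalized apart, the median was 34.4 and 34.5 in E545K and 34.1 and 31.4 in H1047R in palbociclib with erlotinib, against 34.9 and 37.1 in E545K and 38.1 and 39.7 in H1047R in palbociclib alone.

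**Figure D1:**
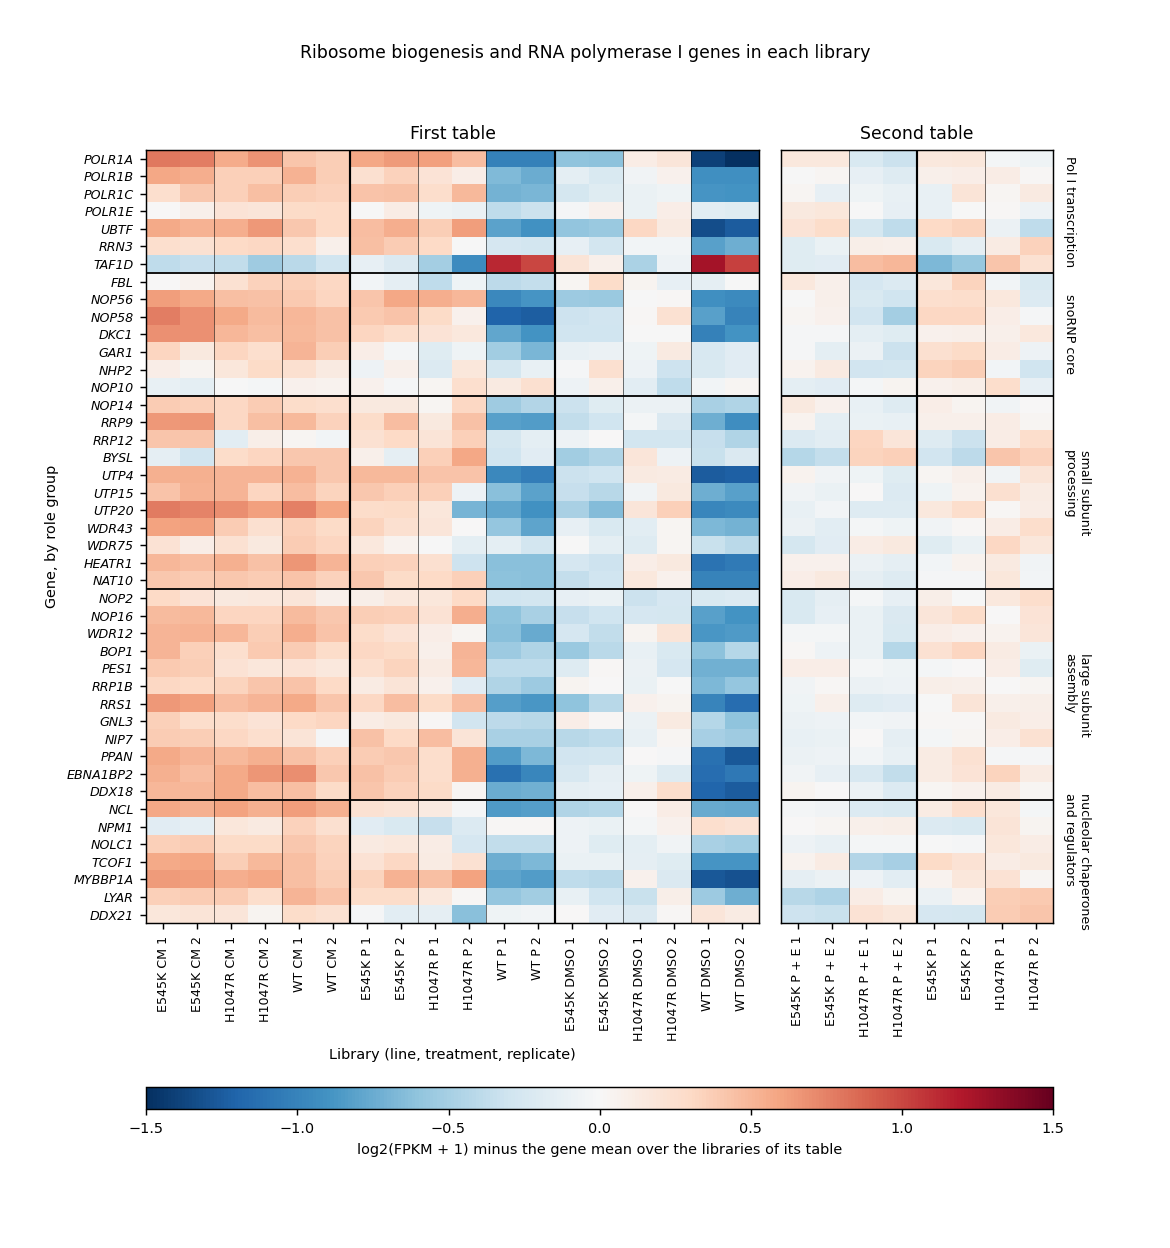
Heat map of log2(FPKM + 1) of each of the 44 genes (rows, by role group) in each library (columns), minus the gene's mean over the libraries of its table; red is above and blue below that mean, CM is conditioned medium, P palbociclib and E erlotinib. WT libraries in palbociclib and DMSO are blue for most genes, conditioned-medium libraries are red for most, and TAF1D runs the other way, with 151 FPKM on average in WT in DMSO and 40.9 FPKM in H1047R in palbociclib.

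Log2 changes below come from limma on log2(FPKM + 1), fitted on the whole table, and are given relative to the median change of all genes tested, whereas each p tests the unadjusted change against 0. That median was 0.292 for conditioned medium in WT, 0.138 for palbociclib in WT, 0.252 and 0.261 for E545K and H1047R against WT in DMSO, and 0.203 for E545K against WT in palbociclib. It was -0.229 and -0.274 for the difference in response to conditioned medium of E545K and H1047R from WT, and -0.166 for that to palbociclib of H1047R from WT. Elsewhere it lay within 0.1 of 0. A gene is called at an adjusted p below 0.05 (Benjamini-Hochberg over all genes tested, 12607 for the first table and 12463 for the second), SE is the standard error of the log2 change, and levels are FPKM. Treatments of 1 line share its DMSO libraries, and comparisons with WT share the WT libraries, so they are not independent of each other. A call of a gene with a relative change near 0 means that it moved with the median of all genes.

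The members' promoters were read because the genes moved together. Of the 44 genes, 35 matched a window of 250 bases before to 50 bases after the start of the gene in RefSeq's table (GRCh38.p14); 10 genes have several windows and the first listed was used. The E-box CACGTG, a motif bound by MYC with MAX and by other factors, stood in 13 of 35 members (37.1%), in 27 of 89 other biogenesis genes (30.3%), in 1057 of 10315 genes tested in the first table (10.2%) and in 2030 of 27305 windows of the table (7.43%). TCTCGCGA stood in 4 of 35 members (11.4%), against 2.41% of the genes tested, and CCAAT in 12 of 35 (34.3%), against 36.7%. CACGTG reads the same on both strands, the other motifs were searched on both strands, and overlaps between motifs were not removed. The promoters of 5 members, chosen after their values were seen, are printed, each the 250 bases before the start, 5′ to 3′ on the gene's strand, with CACGTG in capitals. UTP4 (chr16:69132399-69132648, plus strand) and NAT10 (chr11:34105379-34105628, plus strand) are members that were higher in both mutants and carry the E-box 16 and 15 bases before the start. NOP10 (chr15:34343137-34343386, minus strand) carries it 2 times but was not called in conditioned medium in any line. POLR1A (chr2:86105887-86106136, minus strand) had the widest range of all members and TAF1D (chr11:93741496-93741745, minus strand) was called lower in WT and E545K cells in conditioned medium, where most members rose; neither has the E-box in this window.
UTP4: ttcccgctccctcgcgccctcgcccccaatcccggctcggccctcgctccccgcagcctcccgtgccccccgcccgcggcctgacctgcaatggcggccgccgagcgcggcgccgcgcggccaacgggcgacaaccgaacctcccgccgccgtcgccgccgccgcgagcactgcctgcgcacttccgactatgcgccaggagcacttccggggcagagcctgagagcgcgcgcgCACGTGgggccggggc
NAT10: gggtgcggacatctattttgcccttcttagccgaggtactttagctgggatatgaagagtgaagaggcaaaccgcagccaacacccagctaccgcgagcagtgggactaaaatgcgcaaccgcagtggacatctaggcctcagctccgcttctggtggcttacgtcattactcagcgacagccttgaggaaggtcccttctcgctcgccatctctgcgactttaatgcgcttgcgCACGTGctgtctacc
NOP10: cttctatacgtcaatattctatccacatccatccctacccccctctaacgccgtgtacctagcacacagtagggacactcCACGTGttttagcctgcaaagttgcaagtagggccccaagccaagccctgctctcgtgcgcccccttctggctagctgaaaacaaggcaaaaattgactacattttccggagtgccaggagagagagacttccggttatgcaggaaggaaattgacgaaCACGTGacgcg
POLR1A: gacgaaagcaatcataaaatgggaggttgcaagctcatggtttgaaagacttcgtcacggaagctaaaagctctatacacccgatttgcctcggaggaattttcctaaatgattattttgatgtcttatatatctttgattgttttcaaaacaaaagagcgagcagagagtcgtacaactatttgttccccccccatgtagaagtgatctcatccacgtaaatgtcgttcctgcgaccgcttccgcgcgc
TAF1D: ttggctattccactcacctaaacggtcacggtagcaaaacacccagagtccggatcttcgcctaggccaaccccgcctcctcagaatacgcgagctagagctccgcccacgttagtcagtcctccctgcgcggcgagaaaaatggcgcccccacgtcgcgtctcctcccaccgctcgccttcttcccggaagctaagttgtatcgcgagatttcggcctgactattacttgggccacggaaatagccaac

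The gap between members with and without the E-box varied in size and direction between comparisons. In WT cells in conditioned medium against DMSO the median relative log2 change was 0.72 in the 13 members with it and 0.92 in the 22 without. There 12 of 13 and 19 of 22 rose, against 51.9% of all genes. For palbociclib in E545K the medians were 0.37 with it and 0.52 without, and 11 of 13 and 15 of 22 rose, against 32.9% of all genes. For palbociclib in H1047R they were 0.44 with it, where 10 of 13 rose, and 0.19 without, where 8 of 22 rose, against 19.5% of all genes. Calls in that comparison depended on the processing, and its changes fell with transcript length, as given below. For the difference in palbociclib response, H1047R minus WT, they were 0.32 with it and 0.12 without. These are descriptions with no test, and such matches describe letters in a window and not binding.

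POLR1A, the largest subunit of RNA polymerase I, had the widest range of the 44 genes, 6.81-fold between the highest and lowest group mean. In conditioned medium, POLR1A stood at 12.1 and 11.9 FPKM in E545K, 10.2 and 11.1 FPKM in H1047R and 9.13 and 8.81 FPKM in WT cells. With palbociclib, POLR1A reached 10.3 and 10.8 FPKM in E545K, 10.7 and 9.45 FPKM in H1047R and 2.76 and 2.77 FPKM in WT cells. With DMSO, it stood at 3.99 and 3.94 FPKM in E545K, 7.22 and 7.62 FPKM in H1047R and 1.87 and 1.66 FPKM in WT cells. WT libraries in palbociclib and DMSO lay below all others, and the H1047R libraries in DMSO lay above those of E545K in DMSO. UBTF, the HMG-box factor that opens ribosomal gene repeats for transcription, was likewise lowest in WT cells in palbociclib and DMSO. UBTF had, in conditioned medium, 36.8 and 35.5 FPKM in E545K, 36.2 and 38.8 FPKM in H1047R and 32.6 and 30.3 FPKM in WT cells. The values in palbociclib were 34.1 and 36 FPKM in E545K, 32 and 38.4 FPKM in H1047R and 13.6 and 12.6 FPKM in WT cells. Those in DMSO were 15.9 and 16.3 FPKM in E545K, 30.5 and 27 FPKM in H1047R and 9.11 and 9.72 FPKM in WT cells. In DMSO the libraries of the 3 lines did not overlap, with H1047R highest and WT lowest.

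Among the other factors of this group, POLR1B, a large subunit of the polymerase, averaged 14.3 ± 0.325 FPKM in E545K cells in conditioned medium and 4.46 ± 0.00707 FPKM in WT cells in DMSO (SD, n = 2 in each group here and below). POLR1C, a subunit shared with RNA polymerase III, averaged 41.3 ± 0.304 FPKM in E545K cells in palbociclib and 15.9 ± 0.0424 FPKM in WT cells in DMSO. RRN3, which brings the polymerase to its promoter, averaged 28.6 ± 0.997 FPKM in E545K cells in palbociclib and 11.9 ± 0.516 FPKM in WT cells in DMSO. POLR1E, another subunit of polymerase I, spanned a narrow range, with 21 ± 0.12 FPKM in WT cells in conditioned medium and 13.2 ± 0.346 FPKM in WT cells in palbociclib. TAF1D, a subunit of the promoter selectivity factor SL1 whose introns hold small nucleolar RNAs, was highest where these were low, in WT cells in palbociclib and DMSO. In conditioned medium, TAF1D had 51.9 and 52.9 FPKM in E545K, 52.2 and 46.5 FPKM in H1047R and 50.8 and 54.8 FPKM in WT cells. In palbociclib it had 61.8 and 58 FPKM in E545K, 47.1 and 34.8 FPKM in H1047R and 149 and 136 FPKM in WT cells. In DMSO it had 77.6 and 71.2 FPKM in E545K, 48.3 and 64.1 FPKM in H1047R and 162 and 139 FPKM in WT cells. The 4 WT libraries in palbociclib and DMSO, at 136 FPKM or more, lay above every other library of the first table.

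Of the snoRNP proteins, the scaffold pair NOP56 and NOP58 and the pseudouridine synthase DKC1 varied most. In conditioned medium, NOP56 stood at 99.98 and 96.1 FPKM in E545K, 88.7 and 87.9 FPKM in H1047R and 85.3 and 80.9 FPKM in WT cells. With palbociclib, NOP56 reached 86.5 and 97.2 FPKM in E545K, 94.5 and 91.6 FPKM in H1047R and 32.5 and 34.5 FPKM in WT cells. With DMSO, it stood at 44 and 43.8 FPKM in E545K, 64.3 and 65.5 FPKM in H1047R and 33.6 and 32.8 FPKM in WT cells. Both mutants in palbociclib reached the level of conditioned medium, whereas WT in palbociclib stayed at that of WT in DMSO. NOP58, the partner of NOP56 in box C/D particles, ranged 4.03-fold, with 67.2 ± 2.61 FPKM in E545K cells in conditioned medium and 16.7 ± 0.325 FPKM in WT cells in palbociclib. DKC1, the enzyme of box H/ACA particles, ranged 3.19-fold, with 80.4 ± 0.247 FPKM in E545K cells in conditioned medium and 25.2 ± 1.5 FPKM in WT cells in DMSO. Their partners in the same particles spanned less. FBL, the methyltransferase of box C/D particles, ranged 1.64-fold, with 285 ± 7.74 FPKM in WT cells in conditioned medium and 173 ± 2.48 FPKM in WT cells in palbociclib. GAR1, NHP2 and NOP10 of box H/ACA particles ranged 2.13-fold, 1.34-fold and 1.38-fold.

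In the small subunit group, UTP4, a subunit of the UTP-A complex that binds the nascent precursor, ranged 3.6-fold. UTP4 had, in conditioned medium, 45.8 and 46 FPKM in E545K, 45 and 45.3 FPKM in H1047R and 45.7 and 41.7 FPKM in WT cells. The values in palbociclib were 44.3 and 44.5 FPKM in E545K, 42.7 and 42.6 FPKM in H1047R and 15.5 and 14.8 FPKM in WT cells. Those in DMSO were 25 and 25.3 FPKM in E545K, 34.5 and 34.2 FPKM in H1047R and 12.6 and 12.9 FPKM in WT cells. WT libraries in palbociclib and DMSO stayed at or below 15.5 FPKM and every library in conditioned medium had at least 41.7 FPKM. UTP20, a late component of the processome, ranged 3.94-fold, and HEATR1, another UTP-A subunit, 3.57-fold. The UTP-A subunits UTP15, WDR43 and WDR75 ranged 2.68-fold, 2.55-fold and 1.68-fold. NAT10, which acetylates ribosomal RNA, ranged 2.77-fold, and RRP9, a protein of the U3 snoRNP, 2.99-fold. NOP14, RRP12 and BYSL, which act in assembly or export of the small subunit, ranged 1.85-fold, 1.86-fold and 2.03-fold; BYSL was the member of this group whose lowest group was a mutant, with 10.8 ± 0.445 FPKM in E545K cells in DMSO and 22 ± 2.47 FPKM in H1047R cells in palbociclib.

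In the large subunit group, PPAN, DDX18, RRS1, EBNA1BP2 and WDR12, factors of early large subunit particles, ranged 3.75-fold, 3.6-fold, 3.53-fold, 3.39-fold and 3.06-fold. DDX18 is an RNA helicase. In conditioned medium, DDX18 had 31.3 and 31.2 FPKM in E545K, 32.9 and 30.4 FPKM in H1047R and 30.3 and 27 FPKM in WT cells. In palbociclib it had 29.5 and 28 FPKM in E545K, 26.9 and 22.3 FPKM in H1047R and 12.6 and 12.9 FPKM in WT cells. In DMSO it had 19.8 and 20.0 FPKM in E545K, 23.1 and 26.4 FPKM in H1047R and 8.99 and 8.59 FPKM in WT cells. WT in palbociclib and DMSO stayed below every other library for DDX18. EBNA1BP2 was also lowest in WT in those media. In conditioned medium, EBNA1BP2 stood at 93.2 and 89 FPKM in E545K, 95.5 and 102 FPKM in H1047R and 105 and 85.1 FPKM in WT cells. With palbociclib, EBNA1BP2 reached 87.5 and 83.6 FPKM in E545K, 77 and 93.2 FPKM in H1047R and 28.9 and 32 FPKM in WT cells. With DMSO, it stood at 54.3 and 58.3 FPKM in E545K, 61.5 and 55.8 FPKM in H1047R and 28.4 and 29.9 FPKM in WT cells. The 4 WT libraries in palbociclib and DMSO again stayed below every other library. WDR12 forms the PeBoW complex with BOP1 and PES1, which ranged 1.98-fold and 2.18-fold. NOP16, another assembly factor, ranged 2.55-fold, the nucleolar protein RRP1B 2.05-fold and NIP7 1.9-fold. NOP2, which methylates the large ribosomal RNA, ranged 1.46-fold, and GNL3, the GTPase nucleostemin, 1.79-fold. A read-through transcript joins PPAN to its neighbour P2RY11, so its counting is uncertain.

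Among the chaperones and regulators, NCL, nucleolin, ranged 2.69-fold. NCL had, in conditioned medium, 299 and 289 FPKM in E545K, 305 and 291 FPKM in H1047R and 310.4 and 289 FPKM in WT cells. The values in palbociclib were 235 and 228 FPKM in E545K, 220.2 and 198 FPKM in H1047R and 111 and 112 FPKM in WT cells. Those in DMSO were 146 and 148 FPKM in E545K, 202 and 216 FPKM in H1047R and 118 and 117 FPKM in WT cells. Conditioned-medium libraries lay above all others. MYBBP1A, a nucleolar protein that binds polymerase I, ranged 4.15-fold, with 32.2 ± 0.113 FPKM in E545K cells in conditioned medium and 7.76 ± 0.184 FPKM in WT cells in DMSO. TCOF1, treacle, which holds UBTF and polymerase I at the ribosomal genes, ranged 2.83-fold, the zinc finger protein LYAR 2.22-fold and NOLC1, a chaperone of snoRNPs, 1.85-fold. NPM1, nucleophosmin, was the most abundant member and ranged 1.48-fold, with 2202 ± 118 FPKM in WT cells in conditioned medium and 1484 ± 107 FPKM in H1047R cells in palbociclib. GENCODE v29 names 45 pseudogenes after NPM1, against 5 after DDX18 and 3 or fewer after any other member, so counting of NPM1 reads is uncertain. DDX21, a helicase of ribosomal RNA processing, ranged 1.53-fold.

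**Figure D2:**
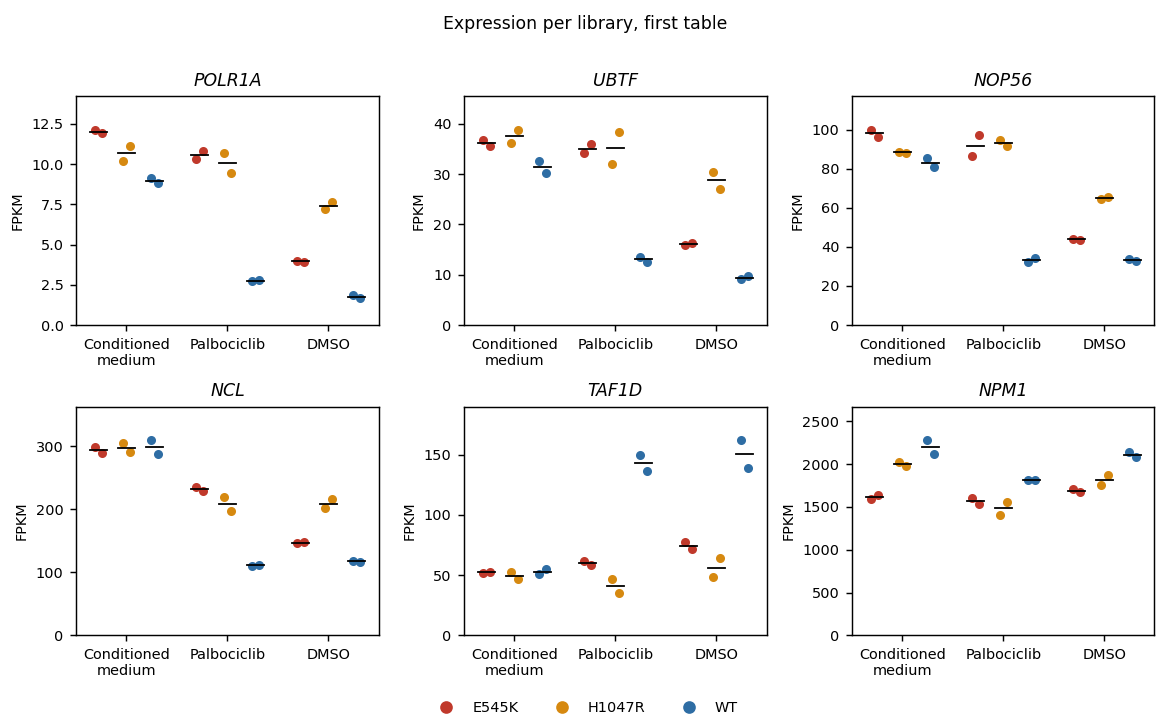
FPKM of 6 members in each library of the first table; points are libraries, black lines group means (n = 2), and each panel starts at 0. POLR1A, UBTF, NOP56 and NCL are low in WT cells in palbociclib and DMSO, TAF1D is high there, and NPM1 ranges 1.48-fold.

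Most of the genes were higher in conditioned medium of senescent cells than in DMSO in every line. The hours in that medium are not given and no group had medium from other cells, so the source of the difference cannot be told apart. In WT cells, 40 of 44 genes rose and 1 fell, against 51.9% higher and 18.6% lower among all genes tested. The genes that rose were 6 of 7 in Pol I transcription, 6 of 7 in snoRNP core, 11 of 11 in small subunit processing, 12 of 12 in large subunit assembly, 5 of 7 in nucleolar chaperones and regulators. The median relative log2 change of the 44 genes was 0.85. UTP4 changed by 1.41 (SE 0.0600, adjusted p = 2.37e-11), POLR1A by 1.56 (SE 0.0823, adjusted p = 1.69e-10) and DKC1 by 1.12 (SE 0.0631, adjusted p = 1.75e-10). UBTF rose by 1.35 (SE 0.0889, adjusted p = 1.07e-09), DDX18 by 1.3 (SE 0.0912, adjusted p = 1.68e-09) and POLR1B by 1.07 (SE 0.0815, adjusted p = 2.52e-09). NCL and NOP56 rose by 1.05 and 1.01 (adjusted p = 5.05e-10 and 5.06e-10), RRN3 by 0.65 (adjusted p = 4.36e-07). FBL, at 0.11 (SE 0.104, adjusted p = 0.00285), moved little more than the median gene. The member that fell was TAF1D, at -1.79 (SE 0.137, adjusted p = 1.89e-07). NPM1, at -0.23 (SE 0.0768, adjusted p = 0.491), was not called, with NOP10 and DDX21 the other members not called. Ribosomal protein genes held 21.5% and 21.6% of the FPKM sum in these libraries, against 27.1% and 27.4% in WT in DMSO, and their part in the rise was not tested. Of the 8 markers of other cell types, COL3A1 was also higher there. It had 19.6 and 17.3 FPKM in conditioned medium, against 3.36 and 3.57 FPKM in DMSO. PTPRC was called higher, at 0.22 (SE 0.211, adjusted p = 0.0422), and CD68 lower, at -0.75 (SE 0.113, adjusted p = 0.002). The summed level of the markers, which joins these opposite moves, was 46 to 53.9 FPKM, against 44.1 to 46.1 FPKM. VWF and DCN were near 0. Of the epithelial markers, CDX2, VIL1 and KRT18 were called higher, at 1.14, 0.27 and 0.14 (adjusted p = 8.42e-08, 0.000172 and 0.00134). CDH1 and EPCAM were called lower, at -0.66 and -0.50 (adjusted p = 0.000415 and 0.0119), and KRT8 was not called. The part of the markers of both kinds was not tested.

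In E545K cells in conditioned medium, 37 of 44 genes rose and 1 fell, against 32.4% higher and 24.9% lower among all genes tested, with a median relative change of 0.63. POLR1A rose by 1.34 (SE 0.0823, adjusted p = 6.22e-09), NOP56 by 1.09 (SE 0.0648, adjusted p = 4.24e-09), RRS1 by 1.09 (SE 0.09, adjusted p = 9.73e-08) and UTP4 by 0.80 (SE 0.0600, adjusted p = 3.31e-08). UBTF, NCL, POLR1B and RRN3 rose by 1.07, 0.95, 0.70 and 0.40 (adjusted p = 1.01e-07, 1.99e-08, 2.26e-06 and 0.000908). TAF1D fell by 0.54 on the relative log2 scale (SE 0.137, adjusted p = 0.00618), while FBL at -0.18 and NPM1 at -0.12 were not called (adjusted p = 0.311 and 0.47). COL3A1 was at -0.91 (SE 0.0863, adjusted p = 9.66e-07) here, opposite to its change in WT. COL1A1 and CD68 were also lower here, at -0.54 and -0.45 (adjusted p = 0.00118 and 0.00668).

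In H1047R cells in conditioned medium, 31 of 44 genes rose and 0 fell, against 8.65% higher and 5.97% lower among all genes tested, with a median relative change of 0.37. These changes were small but set against a small background: 33 members lay above the 90th percentile of all genes tested, 0.28. TCOF1 rose by 0.58 (SE 0.066, adjusted p = 0.00013), EBNA1BP2 by 0.73 (SE 0.103, adjusted p = 0.000499), NCL by 0.50 (SE 0.0669, adjusted p = 0.000342), DKC1 by 0.47 (SE 0.0631, adjusted p = 0.000365), POLR1C by 0.48 (SE 0.0772, adjusted p = 0.00109) and UTP4 by 0.37 (SE 0.0600, adjusted p = 0.00109). NOP56 and POLR1A rose by 0.43 and 0.46 (adjusted p = 0.000766 and 0.00211). POLR1B, UBTF, RRN3 and FBL rose by 0.35, 0.37, 0.33 and 0.31 (adjusted p = 0.00999, 0.0121, 0.026 and 0.0495), but none of these 4 calls held under every omission of a library. NPM1, at 0.13 (SE 0.0768, adjusted p = 0.247), was not called. Without replicate 1 or 2 in conditioned medium, 18 and 16 members were called, and 18 when the fit held only the groups compared. COL3A1 was at 0.53 (SE 0.0863, adjusted p = 0.00121), and its part was not tested. CD68, COL1A1 and PTPRC, at 0.096, -0.29 and -0.22, were not called (adjusted p = 0.585, 0.0909 and 0.563).

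For most members the response to conditioned medium was smaller in the mutants than in WT cells. In the difference of responses, E545K minus WT, 28 members were called lower and 1 higher, against 37.1% lower and 10% higher among all genes, so the share of members called lower was above that of all genes. The median relative difference was -0.20. For H1047R minus WT, 33 members were called lower and 1 higher, against 40.5% lower and 10.4% higher among all genes, and the median relative difference was -0.41. UTP4 differed by -0.63 (SE 0.0848, adjusted p = 2.6e-06) in E545K and by -1.04 (SE 0.0848, adjusted p = 7.43e-08) in H1047R. DDX18 differed by -0.74 (SE 0.129, adjusted p = 3.2e-05) in E545K and -0.98 (SE 0.129, adjusted p = 3.05e-06) in H1047R, and DKC1 by -0.19 (SE 0.0892, adjusted p = 0.00142) and -0.66 (SE 0.0892, adjusted p = 1.64e-06). POLR1C and TCOF1 differed by -0.48 (SE 0.109, adjusted p = 0.000116) and -0.38 (SE 0.0933, adjusted p = 0.000116) in E545K. POLR1A and NCL differed by -1.11 (SE 0.116, adjusted p = 5.57e-07) and -0.56 (SE 0.0946, adjusted p = 7.3e-06) in H1047R. TAF1D, which fell most in WT, was the gene called higher in each difference, at 1.23 (SE 0.193, adjusted p = 0.000729) in E545K and 1.60 (SE 0.193, adjusted p = 6.39e-05) in H1047R. For E545K the count called dropped to 19 with quantile normalization, 15 with median-centring and 18 with the length trend removed; for H1047R, median-centring left 21 lower and 5 higher.

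Palbociclib raised most of the genes in E545K cells and 22 of them in H1047R cells, and in WT cells they stayed near the median gene. In E545K cells, 33 of 44 genes rose and 0 fell, against 32.9% higher and 19.3% lower among all genes tested, with a median relative change of 0.45. The genes that rose were 5 of 7 in Pol I transcription, 3 of 7 in snoRNP core, 10 of 11 in small subunit processing, 10 of 12 in large subunit assembly, 5 of 7 in nucleolar chaperones and regulators. NOP56 rose by 0.96 (SE 0.0648, adjusted p = 1.48e-08), POLR1A by 1.14 (SE 0.0823, adjusted p = 3.57e-08), UTP4 by 0.72 (SE 0.0600, adjusted p = 1.03e-07), UBTF by 1.00 (SE 0.0889, adjusted p = 2.54e-07), RRS1 by 0.81 (SE 0.09, adjusted p = 1.6e-06) and NCL by 0.57 (SE 0.0669, adjusted p = 1.9e-06). RRN3 and POLR1B rose by 0.54 and 0.40 (adjusted p = 6.59e-05 and 0.000189). FBL at -0.32 and NPM1 at -0.19 were not called (adjusted p = 0.0668 and 0.246). Of the markers of other cell types, COL3A1 rose by 0.25 (SE 0.0863, adjusted p = 0.00532). COL1A1 and CD68 were lower, at -0.53 (SE 0.106, adjusted p = 0.00248) and -0.41 (SE 0.113, adjusted p = 0.0227). The summed level of the markers was 43.9 to 45.4 FPKM in palbociclib, against 53.9 to 54.1 FPKM in DMSO, and their part was not tested.

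In H1047R cells in palbociclib, 22 of 44 genes rose and 3 fell, against 19.5% higher and 19.8% lower among all genes tested, with a median relative change of 0.23. NOP2 rose by 0.55 (SE 0.0649, adjusted p = 2.87e-05), NOP56 by 0.54 (SE 0.0648, adjusted p = 3.49e-05), MYBBP1A by 0.63 (SE 0.0909, adjusted p = 0.00017), RRP12 by 0.58 (SE 0.0925, adjusted p = 0.000381) and POLR1C by 0.48 (SE 0.0772, adjusted p = 0.000418). POLR1A rose by 0.42 (SE 0.0823, adjusted p = 0.00206) and UBTF by 0.31 (SE 0.0889, adjusted p = 0.0228). NPM1 changed by -0.26 (SE 0.0768, adjusted p = 0.00854), TAF1D by -0.42 (SE 0.137, adjusted p = 0.0182) and UTP20 by -0.50 (SE 0.184, adjusted p = 0.0331), the 3 members called lower. UTP20 stood at 9.09 and 4.54 FPKM in palbociclib, against 9.17 and 10.5 FPKM in DMSO, and its log2 change was -0.10 (adjusted p = 0.53) without replicate 2 in palbociclib. The calls of UBTF, NPM1 and TAF1D were also lost with 1 library left out. POLR1B, RRN3, NCL and FBL, at 0.17, 0.21, 0.03 and -0.16, were not called (adjusted p = 0.167, 0.129, 0.987 and 0.169). Of the markers of other cell types, COL3A1 was lower at -0.42 (adjusted p = 0.00119) and CD68 higher at 0.39 (adjusted p = 0.0214). Of the epithelial markers, KRT8 and KRT18 were higher by 0.99 and 0.94 (adjusted p = 6.21e-05 and 8.54e-06). EPCAM and VIL1 were lower, at -0.19 and -0.26 (adjusted p = 0.0194 and 0.0378). The part of these markers was not tested. The 2 palbociclib libraries of this line differed most of all pairs, and the log2 change of all genes fell with transcript length, with a median of 0.106 in the 20% of genes with the shortest transcripts and -0.204 in the 20% with the longest. With the length trend removed 23 members rose and 4 fell; without replicate 2 in DMSO 15 were called, and 0 when the fit held only the groups compared.

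In WT cells in palbociclib, 12 of 44 genes rose and 4 fell, against 27.2% higher and 6.77% lower among all genes tested, with a median relative change of -0.02. NAT10 rose by 0.24 (SE 0.0641, adjusted p = 0.000484), RRN3 by 0.38 (SE 0.0932, adjusted p = 0.000796), POLR1A by 0.31 (SE 0.0823, adjusted p = 0.000918), DDX18 by 0.35 (SE 0.0912, adjusted p = 0.001), MYBBP1A by 0.34 (SE 0.0909, adjusted p = 0.00115) and UBTF by 0.30 (SE 0.0889, adjusted p = 0.00189). The 4 genes that fell were GAR1 at -0.53 (SE 0.0934, adjusted p = 0.00479), NOP58 at -0.46 (SE 0.0888, adjusted p = 0.013), FBL at -0.45 (SE 0.104, adjusted p = 0.0331) and NPM1 at -0.36 (SE 0.0768, adjusted p = 0.0411), and each of these 4 calls was lost with some library left out. POLR1B, NOP56 and NCL were at 0.08, -0.13 and -0.21 and not called (adjusted p = 0.052, 0.9 and 0.412). The split depends on the scaling between libraries: with median-centring 4 members rose and 8 fell. Between 8 and 11 members were called when any of the 4 libraries was left out.

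For 21 members the response to palbociclib was larger in E545K than in WT cells. In the difference of responses, 21 members were called higher and 0 lower, against 10.9% higher and 14.7% lower among all genes, with a median relative difference of 0.40. NOP56 differed by 1.08 (SE 0.0916, adjusted p = 4.6e-06), NCL by 0.77 (SE 0.0946, adjusted p = 0.000109), UTP4 by 0.61 (SE 0.0848, adjusted p = 0.000305), POLR1A by 0.82 (SE 0.116, adjusted p = 0.000326) and NIP7 by 0.79 (SE 0.13, adjusted p = 0.000969). For H1047R minus WT, 4 members were called higher and 2 lower, against 5.16% higher and 17.4% lower among all genes, with a median relative difference of 0.27. NOP2 differed by 0.76 (SE 0.0917, adjusted p = 0.00103) and NOP56 by 0.67 (SE 0.0916, adjusted p = 0.00294). HEATR1 and DDX18 were lower, at -0.45 (SE 0.176, adjusted p = 0.0238) and -0.33 (SE 0.129, adjusted p = 0.0154), and lost their calls with 1 library left out. The count for H1047R rests on the library and the scaling: 19 were called without H1047R replicate 1 in palbociclib, 3 without replicate 2 of H1047R in DMSO, without either WT library in DMSO or without WT replicate 1 in palbociclib, 1 when the fit held only the groups compared, and 14 higher with none lower after median-centring or with the length trend removed. Quantile normalization gave 6 higher and 0 lower, and the TPM scale 3 and 3.

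**Figure D3:**
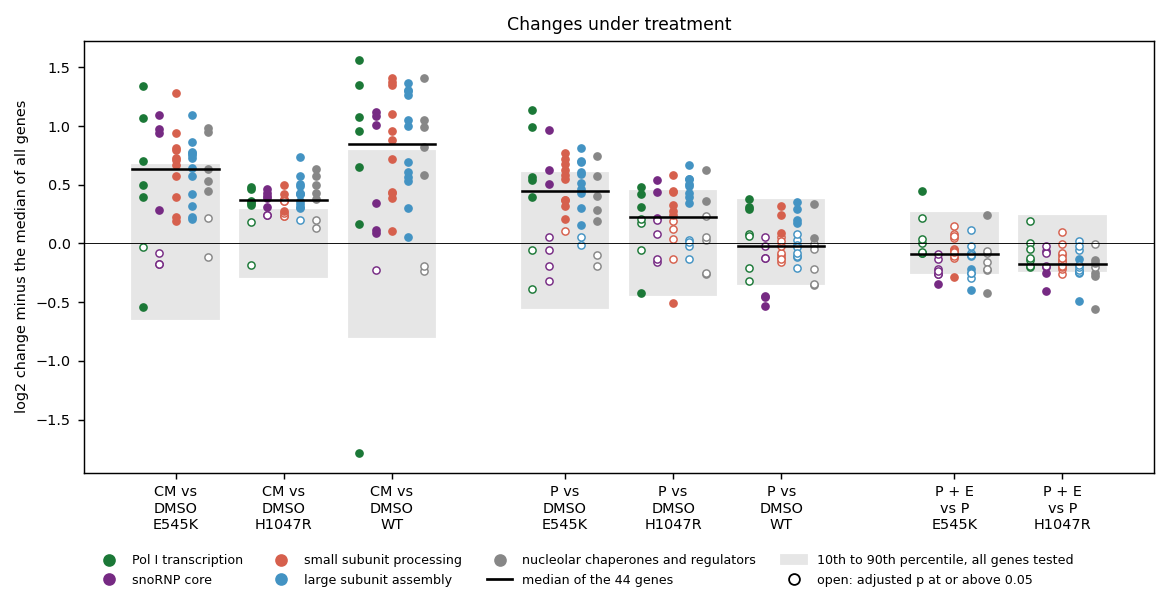
Relative log2 change of each of the 44 genes (points, coloured by role group, filled where called) for conditioned medium (CM) or palbociclib (P) against DMSO in 3 lines, and for palbociclib with erlotinib (P + E) against palbociclib in both mutants; grey bars span the 10th to 90th percentile of all genes tested and black lines mark the median of the 44. The median sits at 0.63, 0.37 and 0.85 in conditioned medium, at 0.45, 0.23 and -0.02 in palbociclib (E545K, H1047R and WT), and below 0 with erlotinib.

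In DMSO most of the genes were higher in the mutant lines than in WT cells. In E545K against WT, 33 of 44 genes were higher and 2 lower, against 48.4% higher and 10.4% lower among all genes tested, and 32 of 44 changes lay above the median of all genes; the median relative difference was 0.26. UTP4 was higher by 0.67 (SE 0.0600, adjusted p = 2.74e-08), DDX18 by 0.84 (SE 0.0912, adjusted p = 2.41e-07), TCOF1 by 0.53 (SE 0.066, adjusted p = 2.67e-07) and POLR1A by 0.59 (SE 0.0823, adjusted p = 9.95e-07). DKC1, POLR1B, UBTF and RRN3 were higher by 0.40, 0.48, 0.46 and 0.32 (adjusted p = 9.95e-07, 3.42e-06, 9.67e-06 and 0.000106). NOP56 at 0.14 and NCL at 0.07 (adjusted p = 0.000124 and 0.000855) moved about as the median gene, and FBL at -0.03 (SE 0.104, adjusted p = 0.0787) was not called. TAF1D was lower, at -1.26 (SE 0.137, adjusted p = 2.21e-05), with 77.6 and 71.2 FPKM in E545K against 162 and 139 FPKM in WT cells. NPM1 was also lower, at -0.57 (SE 0.0768, adjusted p = 0.00254), with a log2 change of 0.11 under quantile normalization. POLR1E and NOP14 were called higher although they rose by less than the median of all genes, at -0.06 and -0.03. Median-centring left 21 higher and 5 lower.

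In H1047R against WT in DMSO, 35 of 44 genes were higher and 3 lower, against 49.9% higher and 17.5% lower among all genes tested, and the median relative difference was 0.41. UTP4 was higher by 1.10 (SE 0.0600, adjusted p = 2.87e-10), POLR1A by 1.35 (SE 0.0823, adjusted p = 9.34e-10), UBTF by 1.25 (SE 0.0889, adjusted p = 3.25e-09), DDX18 by 1.13 (SE 0.0912, adjusted p = 8.47e-09) and MYBBP1A by 0.95 (SE 0.0909, adjusted p = 3.15e-08). DKC1, NOP56, POLR1B, NCL and RRN3 were higher by 0.69, 0.69, 0.67, 0.56 and 0.48 (adjusted p = 1e-08, 1.31e-08, 1.54e-07, 7.06e-08 and 6.35e-06). TAF1D was lower, at -1.68 (SE 0.137, adjusted p = 4.07e-07). NOP10 and NPM1 were lower by calls that did not hold under every omission of a library, at -0.53 (SE 0.0874, adjusted p = 0.0147) and -0.48 (SE 0.0768, adjusted p = 0.021), and NPM1 turned to a log2 change of 0.16 under quantile normalization. FBL, at -0.23 (SE 0.104, adjusted p = 0.808), was not called. GAR1 was called higher although it rose by less than the median of all genes, at -0.03. Median-centring left 24 higher and 6 lower. Of the 8 markers of other cell types, COL3A1 was higher by 0.72 (SE 0.0863, adjusted p = 1.47e-07), with 7.79 and 7.88 FPKM in H1047R against 3.36 and 3.57 FPKM in WT cells, and PTPRC by 0.37 (SE 0.211, adjusted p = 0.0151), with 0.82 and 1.55 FPKM against 0.3 and 0.48 FPKM. CD68 was lower, at -0.53 (SE 0.113, adjusted p = 0.0462). The summed level of the markers was 42.8 to 44.5 FPKM in H1047R, against 44.1 to 46.1 FPKM in WT cells, and their part in the result was not tested.

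Within palbociclib most members were higher in the mutants, in comparisons added after the values were seen. In E545K against WT, 38 of 44 genes were higher and 2 lower, against 45.7% higher and 19.4% lower among all genes tested, with a median relative difference of 0.72. In H1047R against WT, 37 of 44 genes were higher and 3 lower, against 38.5% higher and 24.1% lower among all genes tested, with a median of 0.68. UTP4 was higher by 1.29 (SE 0.0600, adjusted p = 8.35e-11) in E545K and 1.34 (SE 0.0600, adjusted p = 1.97e-10) in H1047R, and NOP56 by 1.22 (SE 0.0648, adjusted p = 2.97e-10) and 1.35 (SE 0.0648, adjusted p = 3.48e-10). POLR1A was higher by 1.41 (SE 0.0823, adjusted p = 9.28e-10) in E545K and 1.46 (SE 0.0823, adjusted p = 1.74e-09) in H1047R, and UBTF by 1.15 (SE 0.0889, adjusted p = 1.05e-08) and 1.26 (SE 0.0889, adjusted p = 1.33e-08). EBNA1BP2 was higher by 1.26 (SE 0.103, adjusted p = 2.14e-08) in E545K and 1.35 (SE 0.103, adjusted p = 2.84e-08) in H1047R, and MYBBP1A by 1.24 (SE 0.0909, adjusted p = 1.9e-08) in H1047R. POLR1B, NCL and RRN3 were higher by 0.79, 0.85 and 0.48 in E545K (adjusted p = 8.8e-08, 7.79e-09 and 1.56e-05) and by 0.76, 0.81 and 0.31 in H1047R (adjusted p = 4.82e-07, 4.33e-08 and 0.00156). TAF1D was lower, at -1.44 (SE 0.137, adjusted p = 1.78e-06) in E545K and -1.89 (SE 0.137, adjusted p = 5.6e-08) in H1047R, and NPM1 at -0.41 (SE 0.0768, adjusted p = 0.0255) and -0.39 (SE 0.0768, adjusted p = 0.0041). DDX21 was lower in H1047R at -0.42 (SE 0.124, adjusted p = 0.0348), but its log2 change was -0.08 (adjusted p = 0.527) without H1047R replicate 2 in palbociclib. FBL was at 0.09 (SE 0.104, adjusted p = 0.0226) in E545K, a call lost with 1 library left out, and at 0.06 (SE 0.104, adjusted p = 0.214) in H1047R, not called; NPM1 in E545K also lost its call so, and its log2 change was 0.29 under quantile normalization. Of the markers of other cell types, COL3A1 was higher by 0.19 (SE 0.0863, adjusted p = 0.00101) in E545K and 0.57 (SE 0.0863, adjusted p = 1.12e-05) in H1047R. COL1A1 was lower, at -0.70 (SE 0.106, adjusted p = 0.000898) in E545K and -0.37 (SE 0.106, adjusted p = 0.0333) in H1047R. CD68 was lower in E545K, at -0.55 (SE 0.113, adjusted p = 0.0136), and not called in H1047R, at -0.29 (SE 0.113, adjusted p = 0.135). The part of these markers was not tested.

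In conditioned medium the lines stood close in these genes, again in comparisons added after the values were seen. Some markers of other cell types differed from WT. COL3A1 was lower, at -3.07 (SE 0.0863, adjusted p = 1.86e-12) in E545K and -0.60 (SE 0.0863, adjusted p = 0.00044) in H1047R. In E545K, COL1A1 was lower at -0.44 (adjusted p = 0.00833) and CD68 higher at 0.30 (adjusted p = 0.0348). No other marker tested was called in H1047R, and the part of these markers was not tested. In H1047R against WT, 0 members were called higher and 0 lower by limma, against 3.06% higher and 5.31% lower among all genes; 2 members had an unadjusted p below 0.05 and the smallest adjusted p was 0.109. The median relative difference was -0.01, and POLR1A and UBTF, at 0.23 (SE 0.0823, adjusted p = 0.116) and 0.25 (SE 0.0889, adjusted p = 0.109), were not called. POLR1B, RRN3, FBL, NOP56, NCL and NPM1 lay between -0.14 and 0.13 and were not called either. In E545K against WT, 8 members were called higher and 4 lower, against 18.1% higher and 15.8% lower among all genes, a share near the background, with a median of 0.04. BYSL was lower by -0.64 (SE 0.105, adjusted p = 0.000384), with 14.1 and 12.6 FPKM in E545K against 20.9 and 21 FPKM in WT cells. NPM1 was lower at -0.48 (SE 0.0768, adjusted p = 0.000415) and POLR1A higher at 0.36 (SE 0.0823, adjusted p = 0.00221). FBL and POLR1E, at -0.34 (SE 0.104, adjusted p = 0.0319) and -0.27 (SE 0.0757, adjusted p = 0.0215), and NOP56 and NIP7, at 0.21 (SE 0.0648, adjusted p = 0.0112) and 0.26 (SE 0.0921, adjusted p = 0.0241), lost their calls with 1 library left out. POLR1B, UBTF, RRN3 and NCL lay between -0.06 and 0.17 and were not called. The count of members called was 4 to 8 with 1 library left out, and the split turned to 4 higher and 5 lower with quantile normalization, 2 and 6 with median-centring and 12 and 3 on the TPM scale.

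**Figure D4:**
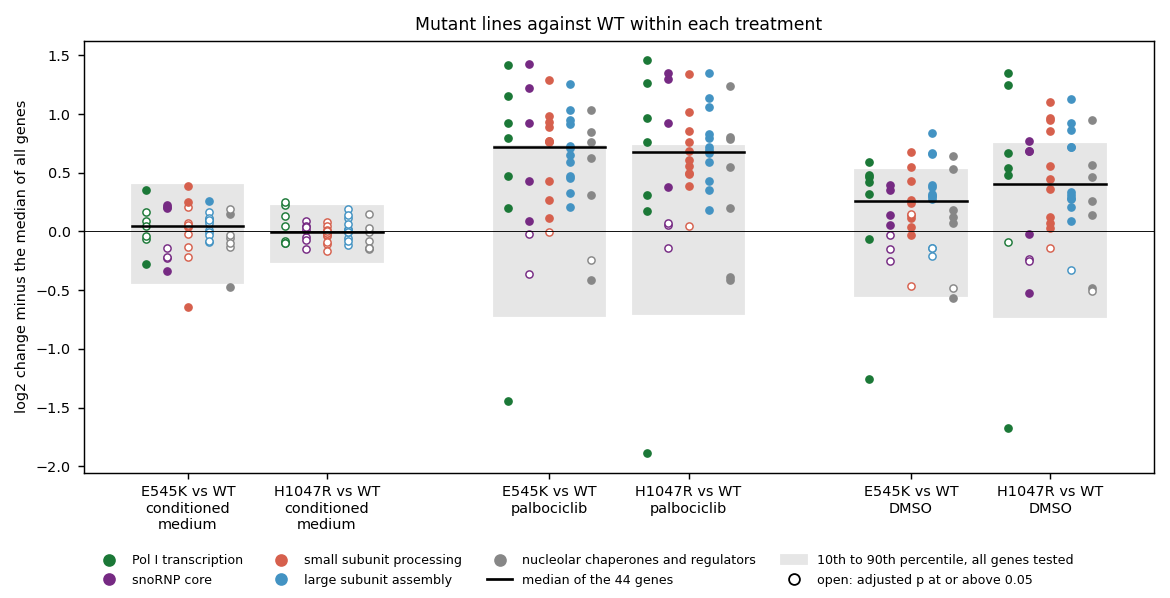
Relative log2 difference of each of the 44 genes between a mutant line and WT within conditioned medium, palbociclib and DMSO, drawn as in the plot of treatment changes. The medians are 0.04 and -0.01 in conditioned medium, 0.72 and 0.68 in palbociclib and 0.26 and 0.41 in DMSO (E545K and H1047R), and TAF1D is the lowest point in palbociclib and DMSO.

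With erlotinib added to palbociclib the members leaned lower in both lines, and 9 of 44 were called in E545K and 10 in H1047R. In E545K cells, 2 of 44 genes rose and 7 fell, against 7.1% higher and 9.11% lower among all genes tested, with a median relative change of -0.09. LYAR, a nucleolar zinc finger protein, had 24.7 and 23.8 FPKM with erlotinib, against 31.3 and 34.6 FPKM with palbociclib alone, a change of -0.42 (SE 0.0611, adjusted p = 0.00364). NOP16 changed by -0.40 (SE 0.0781, adjusted p = 0.0118), UTP20 by -0.28 (SE 0.0692, adjusted p = 0.0271) and GAR1 by -0.35 (SE 0.0948, adjusted p = 0.0394). TAF1D was higher, with 77.5 and 78 FPKM with erlotinib, against 54.8 and 58.9 FPKM with palbociclib alone, a change of 0.45 (SE 0.0669, adjusted p = 0.00414), and NPM1 changed by 0.24 (SE 0.0572, adjusted p = 0.0277). The calls of LYAR and TAF1D held under every omission of a library, and those of NOP16, UTP20, GAR1 and NPM1 did not; 2 to 3 members were called with 1 library left out, 5 with no filter on low values and 19 when the fit held only the groups compared. Quantile normalization gave 2 higher and 4 lower. COL3A1, a marker of other cell types, was lower with erlotinib, at -1.86 (SE 0.237, adjusted p = 0.00212) in E545K and -1.09 (SE 0.237, adjusted p = 0.0245) in H1047R. CD68, at 0.42 in E545K (adjusted p = 0.0518), and PTPRC were called in neither line. The part of these markers was not tested.

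In H1047R cells with erlotinib, 0 of 44 genes rose and 10 fell, against 3.01% higher and 6.35% lower among all genes tested, with a median relative change of -0.18. At an unadjusted limma p below 0.05, 26 members were lower and 1 higher in H1047R, against 28.1% of all genes in either direction. In E545K, 15 were lower and 3 higher at that threshold, against 30.9% of all genes. TCOF1 had 32.2 and 30.8 FPKM with erlotinib, against 47.4 and 48.7 FPKM with palbociclib alone, and changed by -0.56 (SE 0.0527, adjusted p = 0.000789). Its libraries did not overlap. EBNA1BP2 changed by -0.49 (SE 0.0788, adjusted p = 0.00675) and DKC1 by -0.25 (SE 0.0467, adjusted p = 0.00931), and both lost their calls with 1 library left out. The count was 19 and 20 without replicate 1 or 2 in palbociclib alone, 3 and 1 without replicate 1 or 2 with erlotinib, 6 with median-centring, 21 on the TPM scale, 5 with the replicate block and 1 when the fit held only the groups compared. In the difference of responses, H1047R minus E545K, 0 members were called higher and 1 lower, against 0.899% higher and 1.27% lower among all genes. That gene was TCOF1, at -0.40 (SE 0.0745, adjusted p = 0.027), with 45.6 and 47.6 FPKM in E545K with erlotinib, against 53.5 and 51 FPKM without; the call was lost under 6 of 8 omissions of a library and with the replicate block, and 7 and 6 members were called without replicate 1 or 2 of H1047R in palbociclib alone.

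Most of the 101 other biogenesis genes tested rose in conditioned medium in E545K and WT cells. In conditioned medium, 63 of 101 rose and 7 fell in E545K, 34 rose and 0 fell in H1047R, and 86 rose and 5 fell in WT cells, with median relative changes of 0.37, 0.23 and 0.48. The shares that rose were 62.4% in E545K, 33.7% in H1047R and 85.1% in WT, against 32.4%, 8.65% and 51.9% of all genes. In palbociclib, 57 rose and 10 fell in E545K, 29 and 7 in H1047R, and 28 and 4 in WT, with medians of 0.23, 0.09 and -0.04. The shares that rose were 56.4% in E545K, 28.7% in H1047R and 27.7% in WT, against 32.9%, 19.5% and 27.2% of all genes, so that the share in WT was near the background. In DMSO, 70 were higher and 6 lower in E545K than in WT, and 69 and 7 in H1047R, with 69.3% and 68.3% higher, against 48.4% and 49.9% of all genes. EXOSC2, a subunit of the RNA exosome, rose by 1.32 (SE 0.0700, adjusted p = 1.36e-10) in WT in conditioned medium, and MRTO4, a large subunit assembly factor, by 1.39 (SE 0.0894, adjusted p = 8.92e-10). POLR1D, a subunit that RNA polymerases I and III share, was lower there, at -1.0 (SE 0.0854, adjusted p = 3.49e-06), as was NSA2 at -0.72 (SE 0.0596, adjusted p = 1.42e-05). UTP14A rose by 1.01 (SE 0.0905, adjusted p = 2.57e-07) and RRP7A by 0.69 (SE 0.0707, adjusted p = 7.23e-07) in E545K in palbociclib, while RSL24D1 fell by 0.53 on the relative scale (adjusted p = 0.000654). UTP3 was higher by 1.29 (SE 0.113, adjusted p = 8.45e-08) in E545K than in WT in DMSO, and DDX47 lower at -0.86 (SE 0.0644, adjusted p = 1.32e-06) in H1047R. KRR1 was lower at -1.26 (SE 0.116, adjusted p = 1.4e-06) in E545K than in WT in conditioned medium.

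Genes of the MYC network were read beside the members. The transcription factor MYC is known to drive ribosome synthesis, while other genes of the network, such as MXD1, oppose it. MYC had 80.5 and 87.9 FPKM in E545K, 82.1 and 87.1 FPKM in H1047R and 88.2 and 82.3 FPKM in WT cells in conditioned medium. In palbociclib it had 76.9 and 78.6 FPKM in E545K, 76.3 and 89.6 FPKM in H1047R and 26.8 and 26.8 FPKM in WT. In DMSO it had 40.1 and 41.1 FPKM in E545K, 65.5 and 57.8 FPKM in H1047R and 23 and 23.2 FPKM in WT. MYC was low in WT in palbociclib and DMSO, as were most members. It rose by 1.55 (SE 0.0819, adjusted p = 1.71e-10) in WT in conditioned medium, and MXD1, a partner of MAX that opposes MYC, changed by -2.40 (SE 0.166, adjusted p = 3.84e-08) there. In WT in palbociclib MYC was at 0.07 (SE 0.0819, adjusted p = 0.0646), not called, against 0.84 (SE 0.0819, adjusted p = 5.05e-07) in E545K in palbociclib. With erlotinib MYC was at -0.21 in E545K and 0.02 in H1047R and was not called (adjusted p = 0.134 and 0.924). Of the 9 network genes tested, 3 rose and 6 fell in WT in conditioned medium, and 2 were higher and 4 lower in E545K than in WT in DMSO, against 3 and 3 in H1047R. The part of MYC in the members' changes was not tested.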

How the data were processed

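Expression was measured by RNA sequencing of mRNA enriched with oligo(dT) in 26 libraries. The deposited tables give FPKM per gene, as the authors made them, per the file headers; the submitters' processing notes name HISAT2 2.1.0, Bowtie2 2.3.4.3, RSEM 1.3.1, DESeq2 1.4.5 and GRCh38, without their order or roles. Whether strand was used in counting is not given in the sources used here. FPKM carry no read depth, so no counting interval is given.

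Each table was fitted apart with limma 3.58.1 (R 4.3.3) on log2(FPKM + 1), with 1 coefficient per group and a variance trend, over genes that reached 1 FPKM in 2 or more libraries; p-values were adjusted by Benjamini-Hochberg over all genes tested. A fold change on this scale understates that of low genes. The procedure was tested on simulated data. Alternatives covered the pseudocount (0.1), the filter, quantile normalization, median-centring, the TPM scale, the groups in the fit, a replicate block, removal of a length trend and omission of each library. The members and lists were chosen with earlier results of these data known; 4 comparisons (mutants against WT within palbociclib and within conditioned medium) and the length setting were added after values were seen. Genes were named by a rule: POLR1A, POLR1B, UBTF, RRN3, FBL, NOP56, NCL and NPM1 in comparisons within a treatment or line of the first table, and in every comparison the called, non-overlapping member with the smallest adjusted p in each role group and members called against the more frequent direction where 5 or fewer; of other biogenesis genes, those with the smallest adjusted p per direction, and genes of the MYC network. In the first table, the deviations of same-numbered libraries correlated above 0.1 in 15 of 36 pairs of groups and below -0.1 in 6. In the second table they correlated at -0.1 to 0.026. The direction was thus mixed, and numbers were not used as pairs.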

Additional observations from a re-analysis of the deposited data

Results flagged for a closer look

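These results were singled out because the same treatment was followed by different changes in different lines, by a limma test of the difference itself (relative log2 scale). In palbociclib, E545K minus WT, 21 members were called higher and 0 lower, against 10.9% higher and 14.7% lower among all genes, among them POLR1A at 0.82, NOP56 at 1.08, UTP4 at 0.61, NIP7 at 0.79 and NCL at 0.77. In palbociclib, H1047R minus WT, 4 were called higher and 2 lower, against 5.16% higher and 17.4% lower among all genes, among them NOP56 at 0.67, NOP2 at 0.76, HEATR1 at -0.45 and DDX18 at -0.33. The calls of HEATR1 and DDX18 did not hold under every omission of a library, and the counts depended on the library and the scaling.

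In conditioned medium, E545K minus WT, 28 were called lower and 1 higher, against 37.1% lower and 10% higher among all genes, and 15 to 19 in all under quantile normalization, median-centring or removal of the length trend, with UTP4 at -0.63, DDX18 at -0.74, POLR1C at -0.48, TCOF1 at -0.38, DKC1 at -0.19 and TAF1D at 1.23. In conditioned medium, H1047R minus WT, 33 were called lower and 1 higher, against 40.5% lower and 10.4% higher among all genes, with POLR1A at -1.11, UTP4 at -1.04, DDX18 at -0.98, DKC1 at -0.66, NCL at -0.56 and TAF1D at 1.60. The mutant and WT lines differed already in DMSO, and conditioned-medium levels lay close together. For erlotinib, H1047R minus E545K, 1 member was called lower, against 1.27% of all genes, TCOF1 at -0.40. That count is near the background, and the call did not hold under every omission of a library. Groups of 2 libraries are too small for a check of single outlying samples.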

How the results depend on the processing

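Over 19 comparisons and 248 alternative counts, 199 stayed within 1.5 times the reported count with the same leading direction, and 10 comparisons did so under every alternative. Median-centring turned palbociclib in WT to 4 higher and 8 lower (12 in all) and E545K against WT in conditioned medium to 2 and 6 (8); quantile normalization turned the last to 4 and 5 (9). When a fit held the compared groups alone, the count was 0 for palbociclib in H1047R, 18 for conditioned medium in H1047R, 1 for the palbociclib response of H1047R, 19 for erlotinib in E545K and 1 for erlotinib in H1047R. Median-centring and removal of the length trend each gave 14 for the palbociclib response of H1047R. The conditioned-medium response of E545K gave 19 with quantile normalization, 15 with median-centring and 18 with the length trend removed. Without a filter, erlotinib in E545K gave 5 and the difference in erlotinib response 0; erlotinib in H1047R gave 6 with median-centring and 21 on the TPM scale. The replicate block gave 5 for erlotinib in H1047R and 0 for the difference in erlotinib response and changed no other count by over 1.5 times; same-numbered libraries correlated at -0.56 to 0.55 over 36 pairs of groups, so the numbers were not taken as pairs.

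With each library left out in turn, counts ran from 29 to 32 and 34 to 36 for E545K and H1047R against WT in DMSO, 37 to 39 and 37 to 39 in palbociclib, and 4 to 8 and 0 to 0 in conditioned medium. For palbociclib they ran from 30 to 32 in E545K, 15 to 28 in H1047R and 8 to 11 in WT, and for conditioned medium 33 to 37, 16 to 25 and 40 to 41. For the response differences they ran from 15 to 19 and 3 to 19 (palbociclib, E545K and H1047R), 24 to 29 and 31 to 33 (conditioned medium) and 0 to 7 (erlotinib), and for erlotinib from 2 to 3 in E545K and 1 to 20 in H1047R. Where an arm was left with 1 library, it was assumed to vary like the other groups.

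Of 332 changes of named genes, 219 kept their status, called or not called, under every alternative, and 82 lost their call under at least 1. Direction was compared only where a change was called. On the log2 scale before subtraction of the median, NPM1 reversed to 0.11 and 0.16 (E545K and H1047R against WT in DMSO), 0.25 (conditioned medium in E545K) and 0.29 (E545K against WT in palbociclib) under quantile normalization, and for conditioned medium in WT to -0.28 under median-centring and -0.22 with the length trend removed. FBL reversed to -0.32 in H1047R against WT in DMSO under median-centring. MAX, the partner of MYC, reversed to -0.21 and -0.18 in E545K and H1047R against WT in DMSO, -0.091 for conditioned medium in WT and -0.11 in E545K against WT in palbociclib under median-centring, and to -0.21, -0.15, -0.088 and -0.10 with the length trend removed. The cause was not tested.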

Other observations

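The second table holds palbociclib-treated mutant libraries of its own, normalized apart from the first, so levels stand side by side here without a test. TAF1D had 118 and 104 FPKM in H1047R in palbociclib in the second table and 47.1 and 34.8 FPKM in the first. DDX21 had 124 and 128 FPKM in H1047R in the second table and 76.2 and 53.9 FPKM in the first. UTP20 had 10.1 and 10.8 FPKM in the second and 9.09 and 4.54 FPKM in the first. For E545K, TAF1D stood at 54.8 and 58.9 FPKM in the second table and 61.8 and 58 FPKM in the first, while UTP20 stood at 11.2 and 12.1 FPKM in the second table and 9.92 and 10.0 FPKM in the first.

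POLR1A had 10.5 and 10.2 FPKM in the second table and 10.7 and 9.45 FPKM in the first for H1047R, and 12 and 12.1 FPKM in the second and 10.3 and 10.8 FPKM in the first for E545K. NPM1, called lower in H1047R in palbociclib in the first table, had 1408 and 1559 FPKM there and 2141 and 1923 FPKM in the second. WT cells in palbociclib had 1812 and 1817 FPKM in the first table. For E545K, NPM1 had 1627 and 1589 FPKM in the second table and 1600 and 1537 FPKM in the first. Of the 44 members, TAF1D, DDX21, UTP20, POLR1A and NPM1 were picked here after their values were seen.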
